A study of Mus musculus with 8 samples.

Results

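Genes of the fasting liver were examined in ribosome footprints of mouse liver, namely G6pc, Pck1, Tat and Igfbp1. They were chosen by name, as liver genes that insulin is known to repress, with earlier results of these libraries already known. The measured values behind that choice were the authors' fold changes and p-values between the diets, which were not used here, so the 4 genes are described by their level alone and no difference between the diets is given. The deposited table lists 7500 genes, each on its own line, and all 4 were among them. Livers came from male FVB/N mice fed a Se-deficient diet from weaning, for 6 weeks. It was supplemented with 0 ppm Se (0 Se, 2 mice, 4 libraries) or with 0.1 ppm Se as sodium selenite (0.1 Se, again 2 mice and 4 libraries). These are amounts added, and the study measured some Se in the unsupplemented diet too. Whether the mice were fasted before the livers were taken is not given in the sources used here. Each mouse gave 2 libraries. The labels of all 8 libraries point to this table, which gives 1 average abundance per gene. How the libraries were joined for it is not stated. No value belongs to a single mouse or diet, so no SD or n can be given, and the depth is unknown.

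Between meals the liver keeps blood glucose up by making glucose from lactate, glycerol and amino acids. Glucagon, acting through cyclic AMP, and glucocorticoids switch on the genes of this route, and insulin switches them off, largely by driving FoxO transcription factors out of the nucleus. Pck1 encodes the cytosolic phosphoenolpyruvate carboxykinase, which commits carbon to the route, and G6pc encodes the catalytic subunit of glucose-6-phosphatase, which releases free glucose at its end. Tat encodes tyrosine aminotransferase, the first enzyme of tyrosine breakdown and a classical glucocorticoid-induced gene. Igfbp1 encodes a secreted protein that binds insulin-like growth factors in blood.

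A footprint is the stretch of mRNA of about 30 bases that a ribosome shields from nuclease, so footprints on a coding sequence count the ribosomes translating it. The study left out the first 15 and last 3 codons of each coding sequence. The beginnings of the 4 coding sequences are shown. They let the part near the start, mostly left out of counting, be told from the part beyond it. The first 48 bases, or 16 codons, are in lower case, which goes slightly past the 15 codons left out. The next 30 bases, about 1 footprint long, are in capitals. The exact base at which counting began was not measured.
G6pc: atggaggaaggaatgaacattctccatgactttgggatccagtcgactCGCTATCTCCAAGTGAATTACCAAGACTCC
Pck1: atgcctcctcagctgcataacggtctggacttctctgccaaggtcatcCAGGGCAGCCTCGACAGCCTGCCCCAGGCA
Tat: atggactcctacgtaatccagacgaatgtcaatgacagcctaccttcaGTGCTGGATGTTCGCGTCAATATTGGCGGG
Igfbp1: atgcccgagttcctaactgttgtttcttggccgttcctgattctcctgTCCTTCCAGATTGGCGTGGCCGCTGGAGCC

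All 4 genes lie on the plus strand of the mm9 build. Pck1 (chromosome 2, 172978549 to 172984774) has 9 coding exons and encodes 622 residues. Tat (chromosome 8, 112514337 to 112523703) has 11 coding exons and 454 residues. G6pc and Igfbp1 are both on chromosome 11, G6pc at 101228875 to 101239217 with 5 coding exons and 357 residues, and Igfbp1 at 7097785 to 7102549 with 4 coding exons and 272 residues. Of the 30-base windows of each coding sequence, 0% occurred in the coding sequence of any other annotated gene. None of the 4 thus shares footprint-length sequence with another coding gene by exact match, and matches with mismatches were not searched.

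Levels between genes are compared per length, as CPM (counts scaled to library size) per kilobase of the coding length in the table, which for each of these 4 genes was 60 bases shorter than the annotated coding sequence. By this measure Pck1 had the highest level of the 4, at 2109 CPM per kilobase, from a log2 CPM of 11.90. Tat followed at 1827 CPM per kilobase, from a log2 CPM of 11.22. G6pc stood at 260 CPM per kilobase, from a log2 CPM of 8.04, and Igfbp1 at 36.1, from a log2 CPM of 4.77. Pck1 and Tat thus lay close together, with a ratio of 1.15 between their levels, while Pck1 was 8.12 times the level of G6pc and 58.5 times that of Igfbp1. G6pc was 7.20 times the level of Igfbp1. Whether neighbours in this order differ beyond the spread between mice could not be examined, since the authors' average carries no error.

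**Figure D1:**
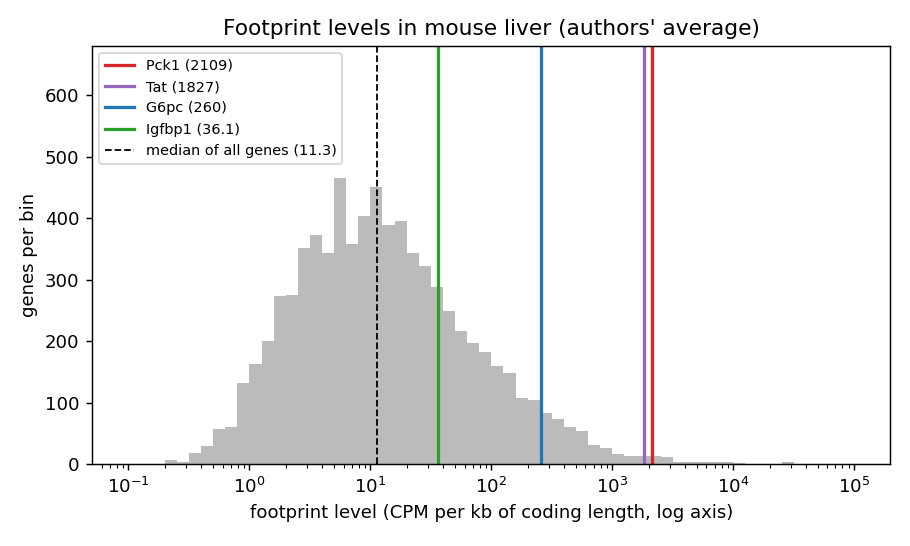
Histogram of footprint levels of 7500 genes in CPM per kilobase of coding length (x, log axis) against genes per bin (y), as the authors' average abundance. Coloured lines mark Pck1 at 2109, Tat at 1827, G6pc at 260 and Igfbp1 at 36.1, all to the right of the dashed median of 11.3.

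The median level over all genes with a line was 11.3 CPM per kilobase, and the range was 0.168 to 83115. Every one of the 4 was above the median, Pck1 by 187 times, Tat by 162 times, G6pc by 23.0 times and Igfbp1 by 3.20 times. Pck1 ranked 49 and Tat 61 from the top of the table. G6pc ranked 415, with 94.5% of genes below it. Igfbp1 ranked 1933, with 74.2% of genes below it. These ranks cover only genes with a line. The CPM of these genes, turned back from the average log2 CPM, summed to 85.7% of the total that CPM is scaled to. Some liver genes, among them Cps1, Arg1 and Tf, had no line and so were not ranked. Why genes had no line was not examined, so here and below a missing line is not read as a low level. As percentages of the CPM total, Pck1 came to 0.382%, Tat to 0.238%, G6pc to 0.0263% and Igfbp1 to 0.00274%. The 4 genes together came to 0.649%. All these percentages rest on averages joined in an unstated way, so they are not measured shares of counts.

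Among the glucose production genes, Pck1 and G6pc stood at different places. Of 18 listed genes reported here, 12 had a line, of which 11 were above the median of all genes. Their median was 255 CPM per kilobase, and G6pc itself and Pcx, the genes on either side of it, set that value. Mdh1, the cytosolic malate dehydrogenase that returns oxaloacetate to the cytosol, was at 787 CPM per kilobase, below Pck1. Pck2, the mitochondrial form of the same carboxykinase, was the lowest of the list at 1.63 CPM per kilobase, so that Pck1 stood 1296 times above it. The log2 CPM of Pck2 was 1.66, with 9.4% of genes below it, so this ratio rests on a low level without an error. Pcx, the pyruvate carboxylase that supplies Pck1 with oxaloacetate, was at 251 CPM per kilobase, and Pck1 was 8.39 times higher.

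G6pc works in the membrane of the endoplasmic reticulum together with Slc37a4, the transporter that brings glucose 6-phosphate to it. Slc37a4 was at 210 CPM per kilobase, and the ratio of G6pc to it was 1.24. Next to G6pc in level among the pathway genes reported here were Agxt, an aminotransferase of glyoxylate metabolism, at 275 CPM per kilobase, and Pcx below it. Pcx, the first enzyme, G6pc, the last, and the transporter Slc37a4 spanned 210 to 260 CPM per kilobase. All 12 glucose production genes with a line ran much wider, from 1.63 to 2109 CPM per kilobase. G6pc3, the widely expressed relative of G6pc, had no line and was not analysed here, nor were Mdh2, Gapdh, Tpi1, Fbp1 and Slc2a2.

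The opposing route of glucose use and its control were represented by 6 listed genes, all with a line. Their levels ran from 3.30 to 775 CPM per kilobase, with a median of 72.2. Ldha, which interconverts lactate and pyruvate, was the highest. Pklr, the liver pyruvate kinase that works against Pck1 by turning phosphoenolpyruvate into pyruvate, was at 245 CPM per kilobase, below Pck1 and near G6pc. Pdk4, a kinase that closes the pyruvate dehydrogenase step during fasting, was the lowest at 3.30 CPM per kilobase. Eno1, Pgam1, Pgk1 and Gpi1 were counted in the glucose production list only, so the medians of the lists depend on that placing.

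**Figure D2:**
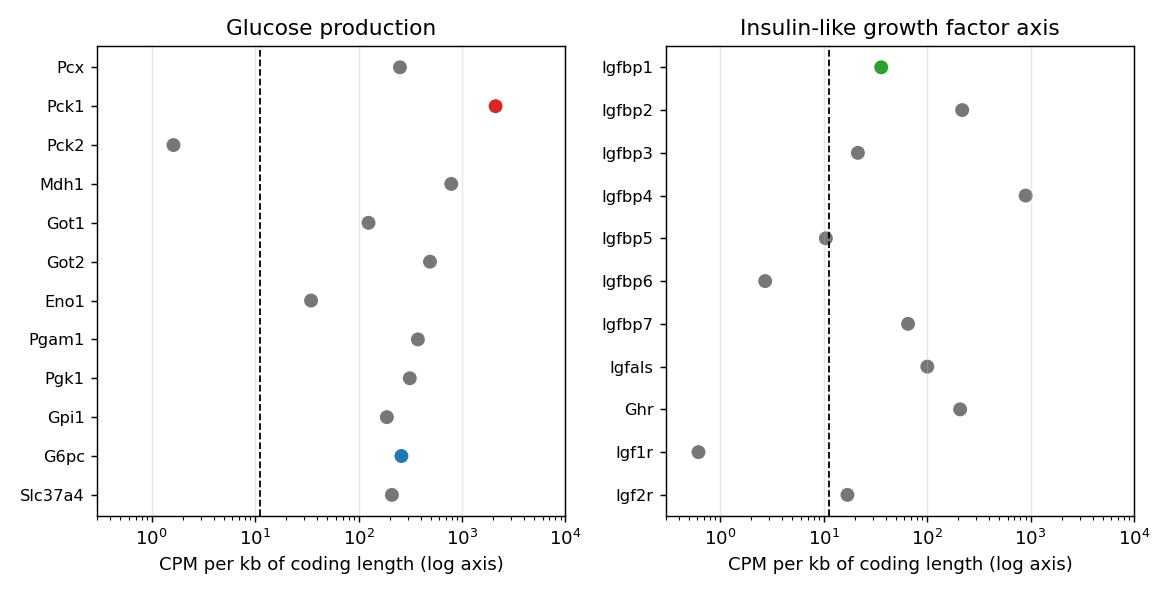
Footprint level of each reported gene with a line (y) in CPM per kilobase of coding length (x, log axis), for the glucose production list (left) and the insulin-like growth factor axis (right), with members coloured and the median of all genes dashed. Pck1 at 2109 is far from Pck2 at 1.63, G6pc at 260 sits near Slc37a4 and Pcx, and Igfbp1 at 36.1 lies below Igfbp4 and Igfbp2.

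Tat was the highest of the listed amino acid breakdown genes with a line. Of 15 listed genes reported here, 11 had a line, all 11 were above the median of all genes, and their median was 275 CPM per kilobase. Hpd, which acts on the product of Tat, was at 1567 CPM per kilobase, so the ratio of Tat to Hpd was 1.17. Gstz1, a later enzyme of the same route, was at 842 CPM per kilobase. Hgd and Fah, which act between Hpd and the end products, had no line, nor did Pcbd1 and Tdo2. The lowest of the list was Gls2, the liver glutaminase, at 73.2 CPM per kilobase.

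Igfbp1 was in the middle of its own family. Of the 12 genes of the insulin-like growth factor axis, 11 had a line, and Igfbp1 was sixth of them and set their median of 36.1 CPM per kilobase. Igfbp4 was the highest at 897 CPM per kilobase, 24.9 times Igfbp1, and Igfbp2, another binding protein of blood, was at 219, or 6.06 times Igfbp1. Igfbp7 was at 65.6 CPM per kilobase, also above Igfbp1. Igfbp3, the main carrier of the growth factors in blood, was at 21.5 CPM per kilobase, with Igfbp5 at 10.5 and Igfbp6 at 2.73. Igfbp1 stood 1.68, 3.43 and 13.2 times above these in turn. The log2 CPM of Igfbp6 was 0.841, with 17.6% of genes below it, so the last ratio rests on a low level without an error.

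Igfals, the hepatocyte protein that completes the large growth factor complex of blood, was at 101 CPM per kilobase, or 2.79 times Igfbp1. The growth hormone receptor Ghr was at 209 CPM per kilobase. Igf1r, the receptor of insulin-like growth factor 1, was the lowest at 0.619 CPM per kilobase. Igf1 had no line and was not analysed here. Next to Igfbp1 in level among the pathway genes reported here were Gcgr at 39.3 CPM per kilobase and Eno1 at 34.8.

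The regulators of these genes had far lower levels than Pck1 and Tat. Of 16 genes of insulin signalling, 12 had a line, with a median of 14.0 CPM per kilobase, and 8 were above the median of all genes. Akt2, the kinase that carries the insulin signal in liver, was the highest at 40.5 CPM per kilobase, and the insulin receptor Insr was at 39.6, both a little above Igfbp1. Foxo1 and Foxo3, the transcription factors that insulin removes from the nucleus, were at 14.8 and 19.4 CPM per kilobase. Rictor, a subunit of the kinase complex that activates Akt, was the lowest at 3.51 CPM per kilobase.

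On the side of glucagon and glucocorticoids, 11 of 14 genes had a line, with a median of 19.2 CPM per kilobase and 7 above the median of all genes. Hnf4a, a nuclear receptor that maintains hepatocyte identity, was the highest at 209 CPM per kilobase, the regulator nearest in level to G6pc in these 2 lists. The glucagon receptor Gcgr was at 39.3 CPM per kilobase and the glucocorticoid receptor Nr3c1 at 19.2. Crtc2, the coactivator that glucagon sends to the nucleus, was the lowest at 3.02 CPM per kilobase. Ppargc1a, Creb1 and Cebpa had no line.

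**Figure D3:**
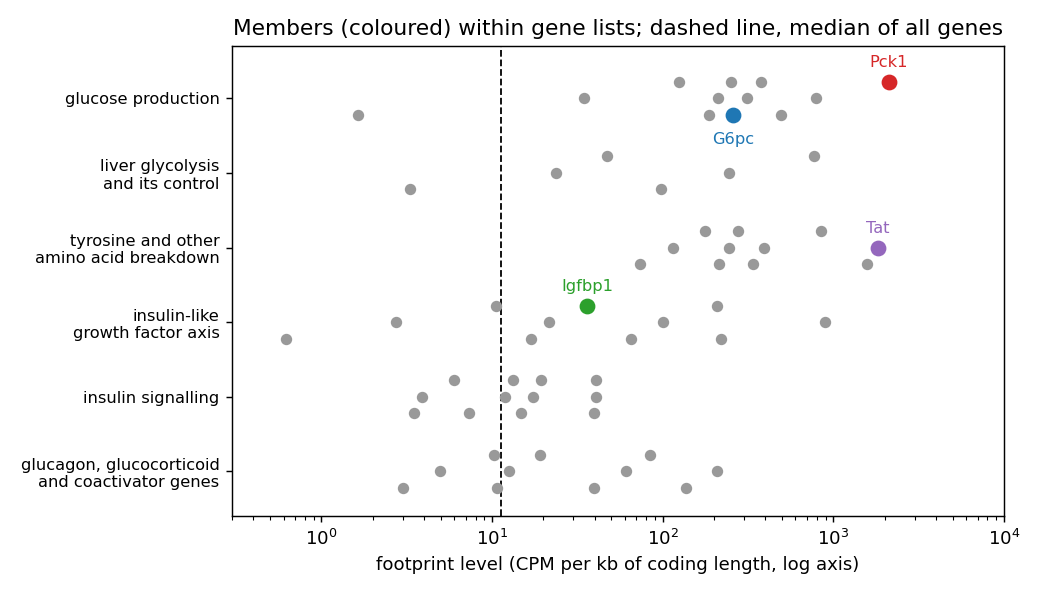
Footprint level of each reported gene with a line in CPM per kilobase of coding length (x, log axis), 1 row of points per gene list (vertical offsets within a row carry no value), with members coloured and the median of all genes dashed. Pck1 and Tat are the highest reported genes of their lists. G6pc and Pcx set the median of the glucose production list, and Igfbp1 sets that of its own. All insulin signalling genes lie at or below 40.5.

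The tissue label was checked against cell type markers. The 7 hepatocyte markers with a line, of 10, had levels of 268 to 51734 CPM per kilobase, and Alb was the highest. Markers of Kupffer cells reached 171 CPM per kilobase (5 of 6 with a line), of endothelial cells 135 (6 of 6), of stellate cells 208 (4 of 5) and of bile duct cells 49.1 (3 of 4). Pck1, Tat and G6pc were above every one of these non-hepatocyte markers, and Igfbp1 was below the highest of each of these 4 types. In a whole-tissue average, fewer cells of a type and less translation per cell cannot be told apart.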

How the data were processed

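Ribosome footprints were sequenced from livers of 4 mice in 8 libraries, and groups were taken from the sample titles. According to the study's methods, reads were trimmed, ribosomal RNA reads were removed with Bowtie, and uniquely aligned reads (at most 2 mismatches) were counted per RefSeq mRNA of mm9, using its longest isoform without the first 15 and last 3 codons. For its differential test the study kept genes above 1 CPM in 3 or more samples. No source used here gives the tools' versions. The deposited table gives the authors' log2 CPM, 1 average abundance per gene from edgeR (how libraries were joined is not stated), and a coding length for each of 7500 genes. Its remaining columns hold the authors' own comparison of the diets (fold changes, p-values and adjusted p-values) and were not used, printed or compared with. No counts per library were used here, so the planned test of the diets was not made, and the depth is unknown.

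The log2 CPM was turned into CPM and divided by the coding length in kilobases. The meaning of that length was examined against mm9 coding sequences (GENCODE M1). Of 7236 genes with a complete coding sequence, 97.9% had a transcript exactly 60 bases, or 20 codons, longer than the table's length, so for these genes the length appears to leave out the ends already, which the methods give as 18 codons. The coordinates are those of GENCODE M1, whose genome build is mm9. Scripts used Python 3.11.15 with pandas 2.3.3 and were tested on simulated data. The members and gene lists were chosen with earlier results of these data known. A few listed genes (3 in all) are not reported here and were left out of the lists. Named beside the members were the highest and lowest gene of each list, the nearest pathway-list gene above and below each member, and the next steps or relatives of each member; a few others were chosen after their values were seen.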

Additional observations from a re-analysis of the deposited data

How the results depend on the processing

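The table holds no error, so any change in the third significant digit is given. Dividing by the length less 18 codons gave Pck1, Tat, G6pc and Igfbp1 levels of 2174, 1906, 274 and 38.8 CPM per kilobase, though for these 4 genes the length in the table is already 60 bases short of the coding sequence. Dividing by the whole coding sequence, chosen after seeing the data, gave 2042, 1747, 245 and 33.4 CPM per kilobase. Rescaled so that the levels of all genes sum to 1000000, they were 2431, 2106, 299 and 41.6. Among the 4998 genes whose log2 CPM reached 3, the shares of genes below them were 99.0%, 98.8%, 91.7% and 61.4%. Among the 7244 genes with a length of at least 300 bases, they were 99.4%, 99.2%, 94.9% and 75.5%. The order of the 4 genes was the same with no division by length. No paired analysis was possible because 0 Se and 0.1 Se share no mouse number and the values are not per mouse. For the same reason leaving out a mouse, other normalizations and other count tests were not run.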
